A study of Homo sapiens with 10 samples.

Results

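PLC and 97H are human liver cancer cell lines, named here as in the labels, and their 8 libraries were compared with each other, out of 10 libraries in the series. Each line was sequenced after 4 treatments, with 1 library for each: a control treated with vehicle, an inhibitor of CDK4/6, the XPO1 inhibitor KPT330 (selinexor), and both drugs together. A PLC library was therefore always set beside the 97H library of the same treatment. The other 2 libraries, Huh7 control and Huh7 with the CDK4/6 inhibitor, come from another liver cancer line and are given for description. The kinases CDK4 and CDK6, with D-type cyclins, phosphorylate RB1 to let cells leave G1. XPO1 carries proteins and some RNAs out of the nucleus. The series as a whole concerns the responses to these drugs; the comparison of the lines asks what stays different between them under all 4 treatments. The sources used here give no dose, time, passage or number of cultures. Line and anything else that differed between the cultures of PLC and 97H cannot be told apart. The 4 libraries of a line are treatments and not repeat cultures, so each p-value below rests on how far the difference between the lines varied from treatment to treatment.

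Hepatocytes secrete most plasma proteins and lipoproteins, make urea, break down amino acids and bile-forming sterols, and clear drugs. This program is held by a small set of transcription factors, HNF4A and the FOXA factors among them, that bind each other's promoters. Liver cancer lines keep it to different degrees. Some lose secreted liver proteins and carry bile duct, progenitor or mesenchymal markers instead, and growth receptors such as MET or stress programs such as NRF2 are often set at a high level in them.

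Library values are FPKM (fragments counted per length of transcript and per size of the library), in the order control, CDK4/6 inhibitor, XPO1 inhibitor and combination. A difference is PLC against 97H on the log2(FPKM + 1) scale, with its standard error (SE) from limma over the 4 treatments of each line (n = 4 and 4), and the pseudocount of 1 understates the differences of genes at low FPKM. Of 10221 genes whose mean over the 8 libraries reached 1 FPKM, 4615 (45.2%) had an adjusted p under 0.05: 2890 (28.3%) were higher in PLC and 1725 (16.9%) higher in 97H. A gene is called stable below where it passed that test, differed by at least 1 on the log2 scale and had all 4 libraries of one line above all 4 of the other. There were 1786 stable genes higher in PLC (17.5% of those tested) and 1266 higher in 97H (12.4%). These shares are the background for every gene group below. The medians of gene lists are over tested genes; with no filter on low values, which adds genes close to 0 in both lines, 34 of 43 list medians moved by over 1.5 times or changed sign, all 34 toward 0 or past it. Other values of a median are given beside it where it moved that far. The median tested gene lay 0.27 higher in PLC on the log2 scale, a shift that falls to 0.10 after quantile normalization and to 0.05 after median ratio scaling. With median ratio scaling the calls split into 2195 higher in PLC and 2251 higher in 97H, so the surplus of PLC genes depends on the scaling. The line explained most of the variance: the leading principal component held 77.35% of it and separated the lines, and log2 values correlated at 0.92 to 0.98 between libraries of a line and at 0.67 to 0.74 across lines. FPKM keeps no read counts, so the absolute depth is unknown. The 10 genes with the most FPKM took 7.12% to 9.03% of the sum in PLC libraries and 13.12% to 15.82% in 97H libraries.

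Markers of hepatocytes and of other cell types were read in both lines. The line of each library was taken from the labels, and its identity was not checked with these markers. Of 12 hepatocyte defining markers, 12 were tested, 7 were higher in PLC and 1 in 97H, and 4 were not called; their summed level was 3447 to 6771 FPKM in PLC and 2940.1 to 6831 in 97H. In 97H nearly all of that sum was the epithelial keratins KRT8 and KRT18, which are not specific to hepatocytes. Without these the other 10 markers summed to 809.67 to 2391.7 FPKM in PLC and 42.2 to 73.9 in 97H. Most of that sum in every PLC library was SERPINA1, the gene with the largest difference in favour of PLC. Among these markers ALB (adjusted p = 0.911) and AFP (0.0802) did not pass the limma test, and the call of TTR was lost under some alternatives. The defining markers PTPRC (leukocytes), HBA1 and HBA2 (red cells), CDH5 (endothelium) and DCN (fibroblasts) were at most 0.209 FPKM in all 8 libraries. Of 11 endothelial markers listed, 8 stayed under 1 FPKM in all 8 libraries, of 13 leukocyte markers 11, of 13 stellate cell and fibroblast markers 8, and of 9 erythroid and platelet markers 9. The 6 of these that were tested were LYZ (lysozyme, 17.8 to 234 FPKM in PLC and 0.0987 to 1.43 in 97H), RELN (reelin, 10.1 to 19.96 and 0.0351 to 0.122), PECAM1 (0.0339 to 0.0676 and 2.33 to 4.22), LUM (lumican, 0 to 0.0329 and 3.17 to 26.02), CD68, a lysosomal protein that did not pass the test (22.7 to 127 and 48.5 to 81.1), and NGFR, a neurotrophin receptor (0.137 to 14.7 and 0 to 1.74). NGFR was called higher in PLC with libraries that overlapped, a call lost without the combination libraries (adjusted p = 0.153).

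The genes furthest apart between the lines included secreted liver proteins in PLC, beside genes of other kinds, and small calcium-binding, caveolar and detoxifying genes in 97H. SERPINA1 (alpha-1-antitrypsin), a major plasma protease inhibitor, stood at 1673, 1759, 662 and 1380.3 FPKM in PLC and at 4.02, 5.56, 1.65 and 3.74 in 97H. Its log2 difference in favour of PLC was 8.15 (SE 0.20, adjusted p = 3.9e-09), with the lowest PLC library far above the highest 97H library. The 11 that followed it were MAGEA4 (a cancer-testis antigen, 7.87), APOE (apolipoprotein E, 7.86), C1QL1 (7.71), GJB1 (the liver gap junction protein connexin 32, 7.27), CD24 (a progenitor surface protein, 7.15), A2M (alpha-2-macroglobulin, 7.14), PYCR1 (proline synthesis, 7.08), PCSK1N (6.89), SLC2A3 (the glucose transporter GLUT3, 6.88), AMBP (a precursor of plasma proteins, 6.82) and C3 (complement, 6.80). In the other direction S100A11, a calcium-binding protein, stood at 3.5, 2.17, 2.42 and 1.82 FPKM in PLC and at 1971, 3134, 2035 and 3594 in 97H, a difference of 9.57 (SE 0.27, adjusted p = 6.17e-09). Others among the largest were AKR1B10 (an aldo-keto reductase, 9.19), S100A6 (9.17), S100A4 (8.92), the caveolae genes CAV2 (8.45) and CAV1 (8.41), CES1 (a liver carboxylesterase, 8.40), NPB (a neuropeptide, 8.17), PTGR1 (prostaglandin reductase, 8.07), KRT19 (the bile duct keratin, 7.96) and MSC (musculin, 7.89). The genes named here were drawn from the stable genes, whose libraries do not overlap by definition. Over all tested genes, 43.8% had no overlap between the lines. A log2 difference of at least 5 was reached by 42 stable genes in PLC and 84 in 97H.

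**Figure D1:**
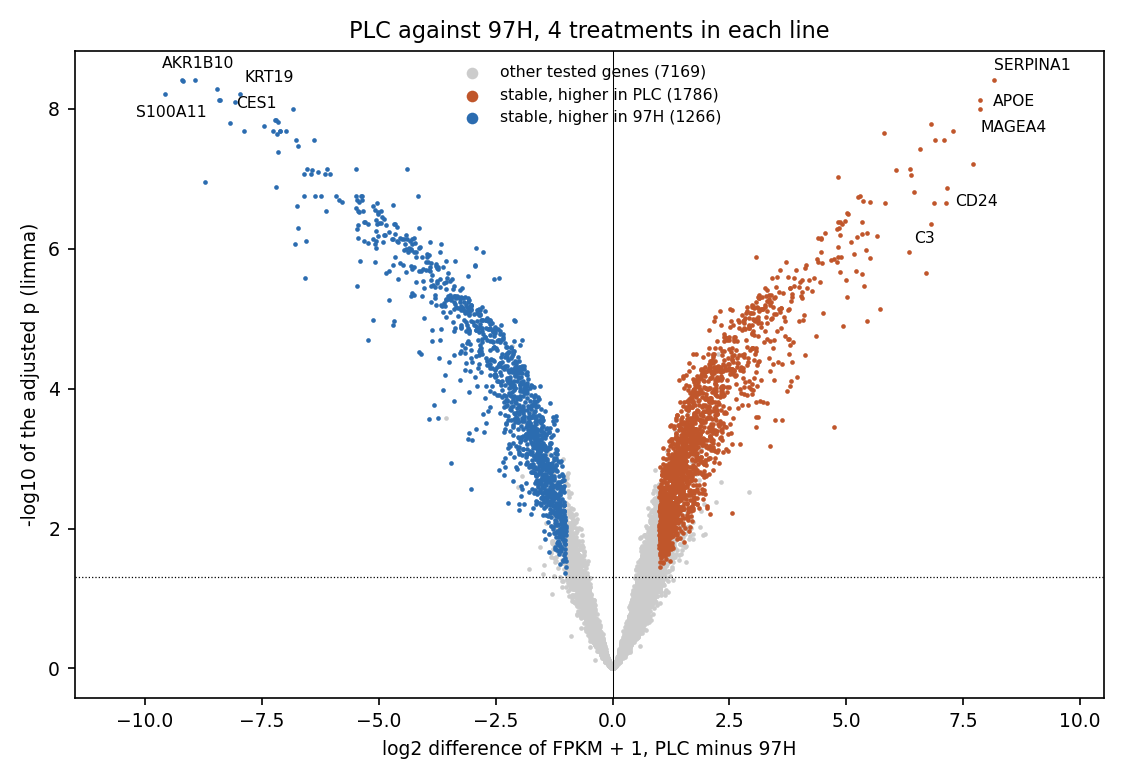
Each point is 1 of 10221 tested genes: the horizontal axis is the log2 difference of FPKM + 1, PLC minus 97H, and the vertical axis is −log10 of the adjusted p from limma, with a dotted line at 0.05. The 1786 stable genes higher in PLC are orange and the 1266 higher in 97H blue; SERPINA1 and S100A11 lie at the ends.

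Liver transcription factors were higher in PLC more often than in 97H. Of 29 tested, 14 were higher in PLC and 3 in 97H, with a list median of 0.64 (0.41 under median ratio scaling). HNF4A, the central hepatocyte nuclear receptor, stood at 47.8, 41.2, 32.3 and 45.2 FPKM in PLC and at 9.26, 18.2, 16.9 and 24.1 in 97H (1.29, SE 0.28, adjusted p = 0.00359), so both lines expressed it and their libraries did not overlap. NR0B2 (the repressor SHP that limits bile acid synthesis) was higher in PLC by 3.80, the clock-linked factors HLF and DBP by 3.36 and 2.64, and FOXA3 by 3.23. The 3 that were higher in 97H were GATA6 (2.69), an endoderm factor, NR2F1 (2.21) and RXRA (1.82), the partner of many nuclear receptors. In Huh7 NR0B2 was at 10.7 and 11.5 FPKM, near the PLC level, while GATA6 was higher still (35.1 and 54.7).

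Plasma protein genes were mostly higher in PLC. Of 36 tested, 25 were higher in PLC and 6 in 97H, and the median was 2.44 (3.76 with a pseudocount of 0.1, 0.40 with no filter and 3.83 with a minimum mean of 5 FPKM). Across the 4 treatments that median ran from 2.25 to 2.99. The best-known members were low in both lines. ALB (albumin) was at 9.74, 4.8, 4.44 and 3.29 FPKM in PLC and 2.42, 2.32, 5.11 and 15.8 in 97H, a difference of 0.08 that did not pass (adjusted p = 0.911), against 1261 and 1062 in Huh7. TTR (transthyretin) was at 2.67 to 21.7 FPKM in PLC and 0.579 to 4.32 in 97H; it was higher in PLC by 1.22, with libraries that overlapped and an adjusted p of 0.0231 that rose to 0.0504 to 0.0726 without the CDK4/6 inhibitor, XPO1 inhibitor or combination libraries; Huh7 had 407 and 3168. The genes that carried the PLC side were AMBP (1925, 1416, 1110.5 and 1507 FPKM against 17.01, 18.8, 8.24 and 7.53), C3 (80.2, 80.8, 173 and 358 against 0.311, 0.394, 0.162 and 0.249), SERPINA6 (the cortisol carrier, 202, 107, 140.5 and 90.2 against 0.577, 0.39, 0.332 and 0.153) and SERPING1, the C1 inhibitor, which differed by 6.45. 97H was higher in IGFBP2 (an IGF carrier, 0.0528 to 0.147 FPKM in PLC and 31.3 to 66.7 in 97H), F5 (coagulation factor V, 1.65) and ITIH2 (1.33).

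SERPINA1 and SERPINA6 lie close together on chromosome 14 and are shown with the stretch before their start sites, since both are secreted liver genes that were high in PLC and low in 97H. The sequences are RefSeq promoters of GRCh38.p14, minus strand, from 250 bases before to 50 bases after a start, written 5′ to 3′ at chr14:94388553-94388852 and chr14:94323287-94323586. Capitals mark CAAAGT, a core of the HNF4 site, searched on both strands.
SERPINA1: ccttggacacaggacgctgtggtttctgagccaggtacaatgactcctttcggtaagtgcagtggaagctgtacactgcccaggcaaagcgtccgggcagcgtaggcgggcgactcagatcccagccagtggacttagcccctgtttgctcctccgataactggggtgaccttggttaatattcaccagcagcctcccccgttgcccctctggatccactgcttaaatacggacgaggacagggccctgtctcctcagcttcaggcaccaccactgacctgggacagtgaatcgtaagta
SERPINA6: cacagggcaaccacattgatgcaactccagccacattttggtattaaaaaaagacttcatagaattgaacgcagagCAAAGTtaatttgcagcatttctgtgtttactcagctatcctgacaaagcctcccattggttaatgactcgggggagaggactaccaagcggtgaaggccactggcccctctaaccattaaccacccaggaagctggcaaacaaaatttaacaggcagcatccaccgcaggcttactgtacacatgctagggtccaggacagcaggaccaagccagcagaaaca
The SERPINA6 stretch holds 1 match and neither listed SERPINA1 start has one. Of the 25 plasma protein genes called higher in PLC, 20 matched the promoter table with 25 promoters, and 5 of these (20%) held CAAAGT, beside 4191 of 35116 promoters overall (11.93%). The motif was chosen after the values were seen. A match is a run of letters and was not tested for binding.

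Lipoprotein genes followed the plasma proteins for the major apolipoproteins and ran the other way for APOL genes. Of 17 tested, 9 were higher in PLC and 5 in 97H (median 0.89; 1.66 with a pseudocount of 0.1, 0.01 with no filter and 1.53 with a minimum mean of 5 FPKM). APOE was at 1135, 1070.0, 696 and 2074 FPKM in PLC and at 3.77, 6.15, 1.95 and 4.99 in 97H. APOB, the scaffold of VLDL and LDL, was at 28.4, 64.4, 28.6 and 70.05 and 0.244, 0.269, 0.326 and 0.421. APOA1 and APOA2, the HDL proteins, were higher in PLC by 3.62 and 5.44, and APOA2 varied within PLC (487, 429.9, 44.6 and 99.98 FPKM), with both libraries that had the XPO1 inhibitor lowest. APOM, an HDL protein that carries sphingosine-1-phosphate, and APOC3 were higher in PLC by 4.08 and 3.79. APOL1 (0.0129 to 0.0847 FPKM in PLC and 10.98 to 37.2 in 97H) and APOL2 (1.49) were higher in 97H.

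Oncofetal genes, which are made by fetal liver and again by liver tumours, were split. Of 16 tested, 8 were higher in PLC and 4 in 97H. AFP (alpha-fetoprotein) was at 37.1, 6.49, 17.2 and 2.9 FPKM in PLC and 3.77, 3.78, 4.14 and 5.6 in 97H and did not pass (adjusted p = 0.0802); it passed in favour of PLC without the CDK4/6 inhibitor libraries (0.00628) or the combination libraries (0.0134). Huh7 had 2344 and 1641. GPC3 (glypican 3) was low in both lines but higher in PLC by 1.68. PEG10, the RNA-binding factors LIN28B and IGF2BP2, and the stem cell factor SALL4 were higher in PLC by 2.81, 2.39, 1.66 and 2.54. AKR1B10 (1.56, 1.02, 1.36 and 1.08 FPKM in PLC, 1848, 1201, 1672 and 809 in 97H), SPP1 (osteopontin, 6.79), SPINK1 (3.92) and GOLM1 (2.19) were higher in 97H. AKR1B10 has close relatives in the genome, and how reads shared with them were assigned is not given.

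Both lines kept the simple epithelial keratins, and bile duct and progenitor markers were divided between them. KRT8 was at 995, 2409, 1356 and 1601 FPKM in PLC and 2112, 2577, 2761 and 4328 in 97H (0.91 higher in 97H, SE 0.22, adjusted p = 0.0066), a call that was lost under quantile normalization (0.47 higher in 97H, adjusted p = 0.15). Its partner KRT18 was at 884 to 1970.0 and 785 to 2429, a difference of 0.09 (adjusted p = 0.783). Of 27 genes tested in that list, 16 were higher in 97H and 6 in PLC, and the median was 1.62 higher in 97H (2.58 with a pseudocount of 0.1, 0.53 with no filter and 2.77 with a minimum mean of 5 FPKM). KRT19 was at 0.829, 1.15, 1.18 and 1.25 FPKM in PLC and at 479, 601, 404 and 634 in 97H. CD44, a hyaluronan receptor of stem-like cells, was at 0.0569, 0.143, 0.126 and 0.218 and 44.6, 48.9, 45.99 and 45.9. CLDN4 and ANXA10, epithelial genes of the gut and bile duct, were higher in 97H by 6.52 and 5.91. PLC had the other set: CD24 at 143, 407, 480.2 and 329 FPKM against 1.06, 1.79, 0.449 and 1.73, the epithelial adhesion gene EPCAM at 12.7, 24.5, 10.5 and 9.11 against 0.0397, 0.168, 0.208 and 0.241, KRT23 (5.65) and LGR5, a WNT-linked stem cell receptor (2.38). Huh7 carried CD24, EPCAM and KRT19 together (331 and 489.9, 30.1 and 42.6 and 429 and 529 FPKM).

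**Figure D2:**
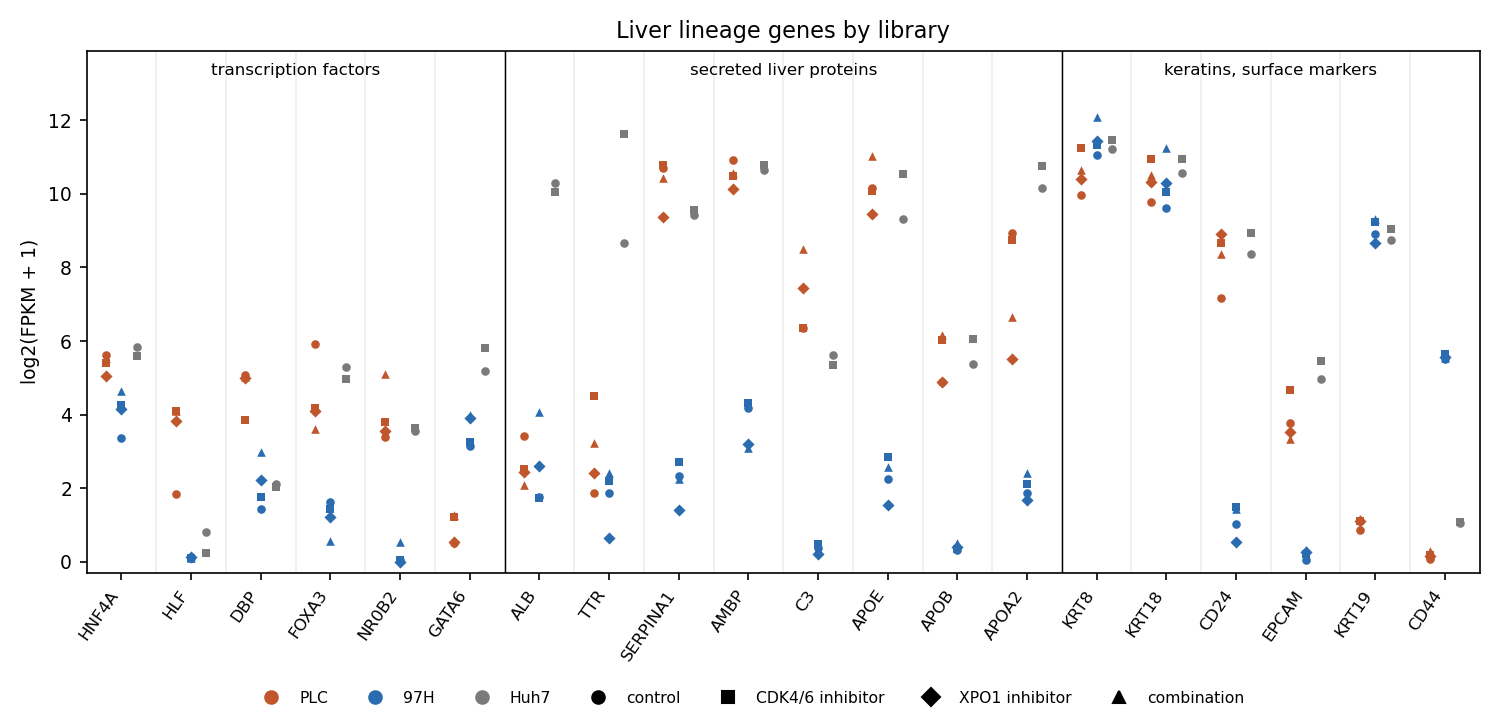
Each point is 1 library, on log2(FPKM + 1), for 20 liver lineage genes; colour is the line and shape the treatment, with PLC left, 97H in the middle and Huh7 right in each column. ALB and TTR are low in PLC and 97H and high in Huh7, SERPINA1, AMBP and APOE separate PLC from 97H, and KRT19 and CD44 separate them in the other direction.

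Mesenchymal and invasion genes were mostly higher in 97H. Of 37 tested, 30 were higher in 97H, 27 of them stable, and 5 in PLC, with a median of 2.42 in favour of 97H (1.38 with no filter). The list holds several genes already named as the largest; those are counted here again. VIM (vimentin), the usual mesenchymal filament, was low in both lines, at 2.64, 9.88, 4.28 and 10.03 FPKM in PLC and 3.55, 4.05, 4.12 and 3.57 in 97H, and did not pass (adjusted p = 0.226; 534 and 649.7 in Huh7). CDH2 (N-cadherin) was higher in 97H by 1.92. S100A6 was at 3.29, 1.63, 1.93 and 1.62 FPKM in PLC and 1853, 2509.6, 1481 and 1400.4 in 97H, and S100A4, a marker of motile cells, at 3.06, 2.56, 4.42 and 3.39 and 1500.0, 1928, 2162 and 3032. PLC was higher in NNMT, a nicotinamide methyltransferase (15.1 to 26.9 FPKM against 0.286 to 2.23), and in TWIST2, a mesenchymal transcription factor (2 to 3.63, listed at 0 in all 97H libraries). Neither S100A6 nor S100A4 was under 1400.4 FPKM in a 97H library, while vimentin was not above 4.12 in any.

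Matrix and integrin genes lay on the same side. Of 24 matrix genes tested, 14 were higher in 97H and 3 in PLC (median 1.72 in favour of 97H; 2.75 with a pseudocount of 0.1 and 0.35 with no filter). The fibrillar collagens COL1A1 and COL1A2 were at most 3.82 FPKM in either line and were not tested. TIMP1, an inhibitor of matrix proteases, was at 0.541, 1.01, 0.898 and 1.23 FPKM in PLC and 193, 299.8, 133 and 208 in 97H, and TIMP3 was higher in 97H by 4.69. The collagen VI genes COL6A1 and COL6A2 were higher in 97H by 6.38 and 4.65, and LAMB3, a chain of an epithelial laminin, by 5.05. LAMB2 (2.34) and FBLN1 (1.75) were higher in PLC. ITGA3 and ITGB4, integrin chains that bind this laminin, stood at 1.85 to 3.09 and 0.205 to 0.373 FPKM in PLC and at 96.8 to 166 and 12.5 to 28.5 in 97H. Of 12 integrin genes tested, 6 were higher in 97H, ITGA2 (1.13; adjusted p = 0.0524 without the control and 0.0744 without the combination libraries) among them, and 1, ITGA1 (1.25), in PLC.

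Junction genes included claudins that were high in one line or the other. Of 27 tested, 10 were higher in 97H and 6 in PLC. CDH1 (E-cadherin) was low in both, at 0.645 to 1.81 and 1.05 to 3.05 FPKM (adjusted p = 0.332). CLDN1 was at 122, 206, 339 and 237 FPKM in PLC and 2.03, 5.07, 6.4 and 12.6 in 97H, while CLDN4 was at 1.25, 3.51, 0.936 and 1.02 in PLC and 166, 273, 186 and 333 in 97H. CLDN2 was also higher in 97H by 5.42. GJB1 (238, 147, 190.2 and 211 FPKM in PLC, 0.625, 0.381, 0.0822 and 0.0292 in 97H) and OCLN (2.11) were higher in PLC. The desmosome genes PKP3 and DSG2 were higher in 97H by 4.41 and 2.84.

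Growth receptors differed gene by gene rather than as a list. Of 31 receptor kinases and ligands tested, 8 were higher in PLC and 11 in 97H; the median of 0.27 changed sign without the combination libraries (-0.10) and ran from -0.10 to 0.50 over the alternatives. MET, the receptor for hepatocyte growth factor, was at 1.17, 6.17, 4 and 3.64 FPKM in PLC and at 596, 233, 373 and 527 in 97H, higher in 97H by 6.55 (SE 0.40, adjusted p = 7.83e-07). EGFR did not pass (8.12 to 13.2 and 5.49 to 9.22 FPKM, adjusted p = 0.259). ERBB2 and ERBB3, which signal as a pair, were higher in PLC by 1.93 and 2.08. So were the FGF receptors FGFR1 (3.12) and FGFR4 (1.51), together with KLB, the co-receptor through which FGF19 reaches FGFR4 (2.82, 15.5, 16.4 and 22.5 FPKM against 0.193, 0.193, 0.12 and 0.145). The ephrin receptors EPHB2, EPHB3 and EPHB6 were higher in 97H by 2.15, 2.18 and 3.90, and the EGFR ligand TGFA by 2.12.

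Genes switched on by ERK signalling were more often higher in 97H: 11 of 21 tested, with 3 higher in PLC (median 1.0 in favour of 97H; 0.57 with no filter and 0.57 with a minimum mean of 5 FPKM). The feedback phosphatases DUSP4, DUSP5 and DUSP6 were higher in 97H by 3.15, 1.64 and 2.18. FOSL1, an AP-1 subunit, was at 0.996, 3.28, 1.81 and 10.5 FPKM in PLC and at 65.8, 104, 54.7 and 27.7 in 97H, and EMP1 at 0.0191 to 0.0742 and 22.5 to 40.8. Of the 3 on the other side, ETV4 (20.2 to 81.5 FPKM in PLC, 6.44 to 11.5 in 97H) and CXCL8 (interleukin 8, 13.4 to 101 and 0.778 to 2.87) were stably higher in PLC.

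WNT, Notch, YAP and TGF-beta genes were divided between the lines. In the WNT list 9 of 22 were higher in PLC and 6 in 97H, and its median of 0.19 changed sign under median ratio scaling (-0.04) and ran from -0.04 to 0.56 over the alternatives. AXIN2, a general beta-catenin feedback gene, was at 0.925, 1.45, 1.29 and 1.3 FPKM in PLC and 16.5, 16.7, 17.9 and 9.08 in 97H, and the WNT antagonist DKK1 and the ligand WNT7B were also higher in 97H (3.21 and 2.66). The WNT receptors FZD8, FZD2 and FZD4, the factor LEF1 and LGR5 were higher in PLC (3.30, 1.94, 1.85, 2.56 and 2.38). Of 14 Notch genes, 3 were higher in PLC and 5 in 97H: NOTCH1 (1.20), JAG1 (2.11) and JAG2 (1.71) in 97H, and the ligand DLL4 (9.14 to 18.4 FPKM against 0 to 0.202) in PLC, while NOTCH2 did not pass (-0.10, adjusted p = 0.828). The median of the Notch list, 0.19 in favour of 97H, changed sign with no filter (0.05, PLC higher) and with a minimum mean of 5 FPKM (0.25, PLC higher); PLC minus 97H, it ran from -0.41 to 0.25 over the alternatives.

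YAP and TEAD target genes were evenly split, 8 and 8 of 27, and their median (0.25 in favour of 97H) changed sign without the control libraries (0.12, PLC higher); PLC minus 97H, it ran from -0.49 to 0.12. The matrix-associated genes CYR61 (2.25) and CTGF (0.85) were higher in PLC with libraries that overlapped across treatments; the CTGF call was lost without the CDK4/6 inhibitor libraries (adjusted p = 0.109), without the XPO1 inhibitor libraries (0.193) and under median ratio scaling (0.114). At matched treatment CYR61 was 37.6, 169.8, 267 and 299 FPKM in PLC and 8.97, 20.3, 62.1 and 75.6 in 97H. TGFB2 (0.0224 to 0.154 FPKM in PLC and 5.49 to 12.2 in 97H), the ecto-nucleotidase NT5E (3.07) and the receptor AXL (1.85) were higher in 97H. In the TGF-beta, activin and BMP list, 10 of 34 were higher in PLC and 6 in 97H (median 0.31, and -0.13 to 0.39 over the alternatives, negative with a minimum mean of 5 FPKM). TGFB1 (1.31), TGFB2 and the activin chain INHBB (2.27) were higher in 97H. The activin antagonist FST was at 24.8, 8.42, 25.1 and 11.8 FPKM in PLC and 0.112, 0.0197, 0 and 0 in 97H, and GDF15 (3.07), INHBE (2.59) and ID2 (2.36), a BMP target, were higher in PLC.

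Interferon genes were divided. STAT2, which carries type I interferon signals, did not pass (2.85 to 4.27 and 3.92 to 7.04 FPKM, adjusted p = 0.223). In the interferon and antigen presentation list 9 of 33 were higher in PLC and 12 in 97H; its median, 0.08 in favour of 97H, changed sign without the combination libraries (0.08, PLC higher) and with a minimum mean of 5 FPKM (0.14, PLC higher); PLC minus 97H, it ran from -0.31 to 0.14 over the alternatives. IFI6 (3.37), IFITM3 (1.96), IFITM2 (1.50) and IRF9 (1.81), a partner of STAT2, were higher in PLC. The antiviral RNA sensors OAS1 (1.19, 0.834, 0.342 and 0.285 FPKM in PLC, 18.98, 28.95, 72.4 and 68.1 in 97H), OAS2 (2.32) and OAS3 (3.63) and the immunoproteasome gene PSMB8 (3.51) were higher in 97H.

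Of 28 NF-kappaB and chemokine genes, 16 were higher in PLC and 4 in 97H (median 1.26; 0.28 with no filter). NFKB1 did not pass (-0.21, adjusted p = 0.555), while NFKB2 was at 38.2, 27.1, 44.8 and 57.5 FPKM in PLC and 7.74, 9.68, 7.66 and 6.45 in 97H. The neutrophil chemokines CXCL1 (19.5, 35.1, 79.9 and 47.4 FPKM against 0.359, 1.35, 1.19 and 2.57), CXCL8 (3.94) and CXCL5 (3.08) and CCL20 (3.03) were higher in PLC, all 4 as stable genes. TNFAIP2 (4.23), LCN2 (2.74), CSF1 (2.13) and IL1B (1.92) were higher in 97H. In the IL6 family IL6 itself was at most 0.0300 FPKM in both lines and IL6R did not pass (adjusted p = 0.648). LIF (0.0638 to 0.238 FPKM in PLC, 7.16 to 14.1 in 97H), CLCF1 (2.83), the receptor OSMR (1.95), STAT5A (2.07) and the feedback gene SOCS3 (2.19) were higher in 97H. The list counted 6 of 18 higher in 97H and 3 in PLC.

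IGF carriers were exchanged between the lines. IGFBP1, the hepatic carrier, was at 76.1, 24.6, 54.9 and 96.9 FPKM in PLC and 7.49, 11.4, 13.6 and 10.1 in 97H, and IGFBP7 at 5.23 to 11.1 and 0 to 0.0518. IGFBP2, IGFBP4 and IGFBP6 were higher in 97H by 5.28, 7.17 and 5.47. The CXCL12 scavenger receptor ACKR3 was at 0 to 0.0484 FPKM in PLC and 37.3 to 89.8 in 97H, while its ligand CXCL12 was at 6.19 to 18.1 in PLC and 0 to 0.0383 in 97H. GPRC5A was higher in 97H by 4.61 and RGS10 in PLC by 2.49. Of 19 genes tested in the list of growth factor binding and G protein signalling, 10 were higher in 97H and 6 in PLC.

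**Figure D3:**
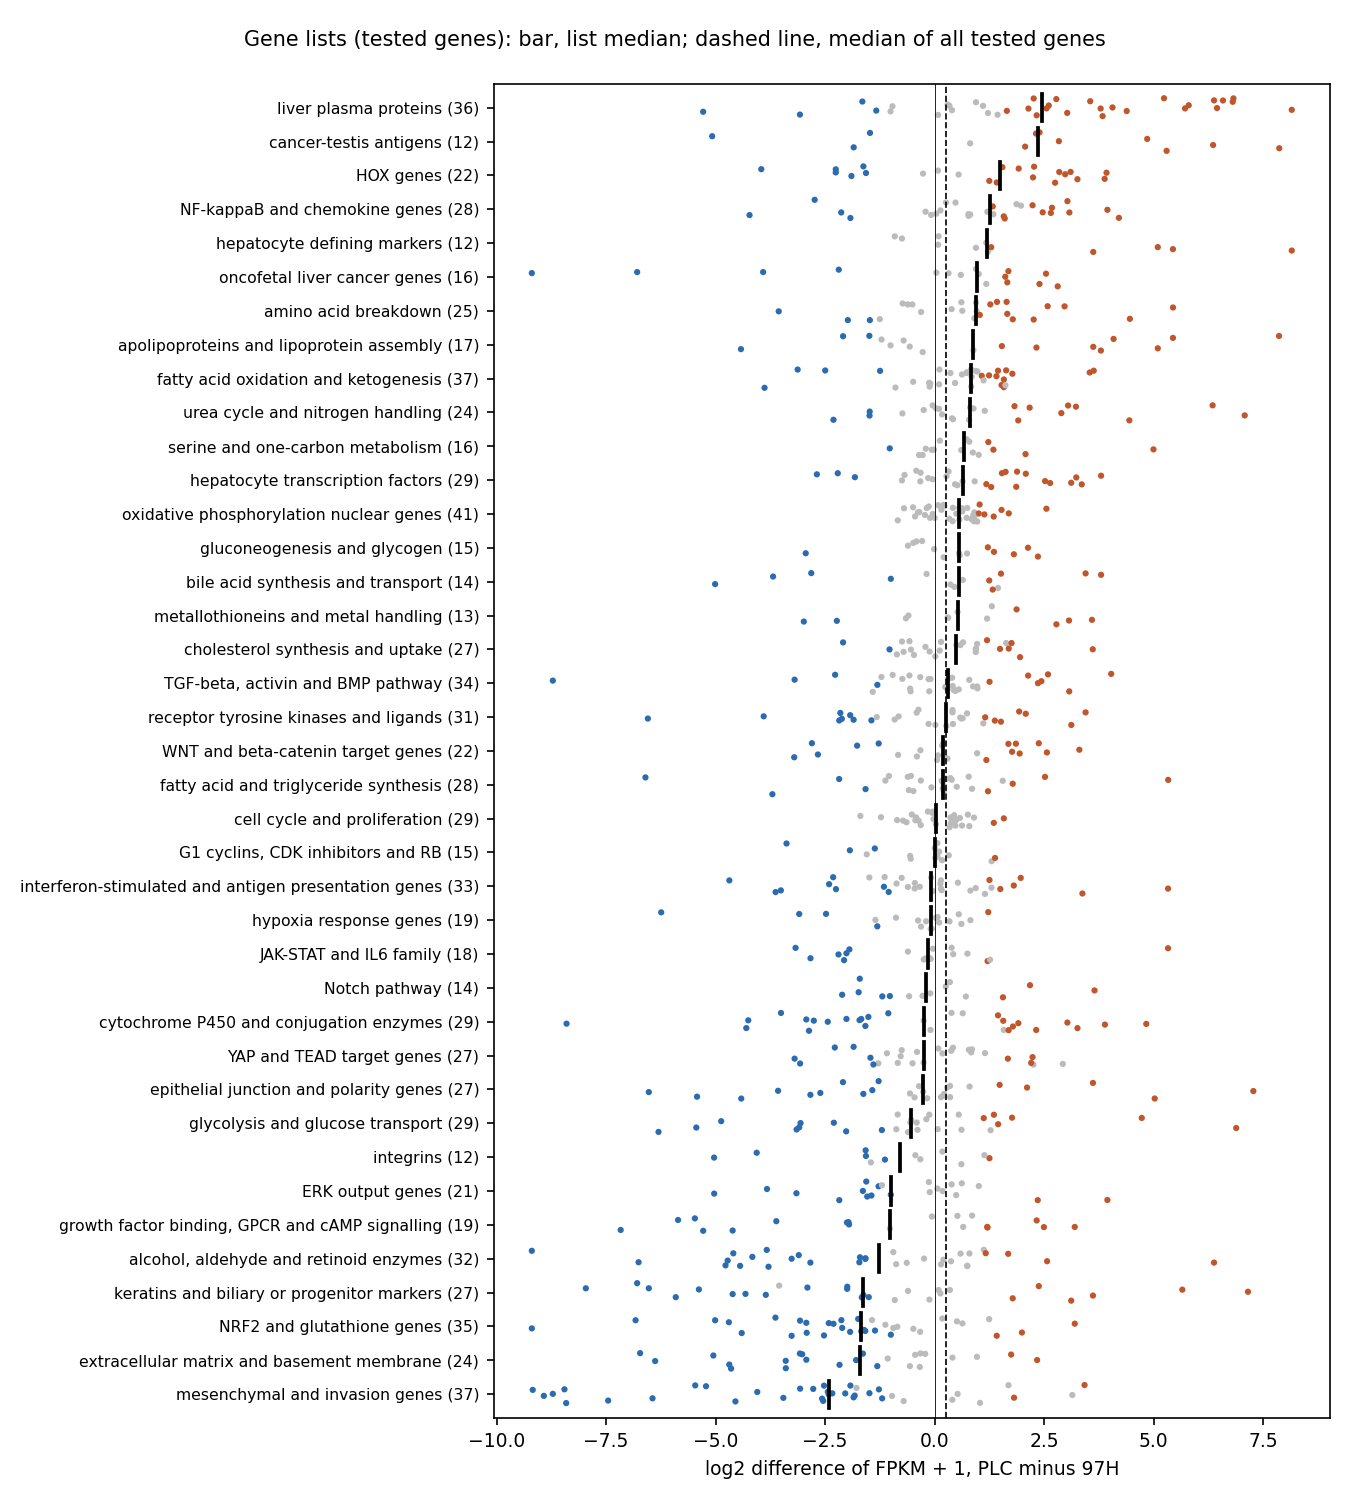
Each row is a gene list with at least 5 tested genes (number in brackets), each point a tested gene, and the horizontal axis its log2 difference of FPKM + 1, PLC minus 97H; orange and blue points are stable genes, grey points the rest. Black bars mark list medians and the dashed line the median of all tested genes at 0.27; plasma proteins lie highest at 2.44 and mesenchymal and invasion genes lowest at -2.42.

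The lines differed in which glucose transporter genes they expressed. SLC2A2, the low-affinity transporter of hepatocytes (GLUT2), was at 19.9, 54.9, 20.4 and 22.1 FPKM in PLC and at 0.0955, 0.0735, 0 and 0 in 97H. SLC2A3 (GLUT3) was at 68.9, 189, 207 and 146 and 0.526, 0.226, 0.0646 and 0.0526. SLC2A1 (GLUT1) was at 24.7, 7.36, 10.3 and 5.73 in PLC and 43.1, 109, 108 and 163 in 97H, higher in 97H by 3.09 (SE 0.49, adjusted p = 0.000519). Enzymes of glycolysis were mixed, with 12 of 29 list members higher in 97H and 8 in PLC (median 0.53 in favour of 97H; 0.80 under median ratio scaling). LDHB was at 3.19, 5.8, 3.93 and 2 FPKM in PLC and 282, 142, 178 and 206 in 97H, and PFKP, the platelet form of phosphofructokinase, at 0.342 to 1.96 and 46.9 to 60.8. The lactate transporter SLC16A3 (MCT4) was higher in 97H by 6.30. The fructose kinase gene KHK (1.77), PFKFB3 (1.45) and PGAM1 (1.35) were higher in PLC.

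Gluconeogenesis and glycogen genes were more often higher in PLC: 6 of 15, with 1 higher in 97H. The list median was 0.56 in favour of PLC and, PLC minus 97H, ran from -0.09 to 0.79 across the 4 treatments. It was 0.35 under quantile normalization, 0.31 under median ratio scaling and 0.15 with no filter. Without the control or the CDK4/6 inhibitor libraries it was 0.31 and 0.25. PCK1 was under 1 FPKM in all 8 libraries. PCK2, its mitochondrial form, was at 44.6, 22.03, 17.6 and 31.1 FPKM in PLC and 4.29, 6.64, 4.98 and 6.06 in 97H, and G6PC, which releases free glucose, at 8.21, 0.546, 8.44 and 4.21 and 0, 0.0154, 0 and 0. The 1 gene on the other side was PYGB, the brain form of glycogen phosphorylase (29.4 to 53.6 FPKM in PLC and 284 to 373 in 97H).

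Nitrogen and amino acid genes were more often higher in PLC. Of 24 urea cycle and nitrogen genes, 13 were higher in PLC and 4 in 97H (median 0.80; 0.40 with no filter). CPS1, the entry enzyme of the urea cycle, was low but higher in PLC (2.29 to 4.01 FPKM against 0 to 0.0183), and OTC was under 1 FPKM in all 8 libraries. ASS1, which makes argininosuccinate, was at 977, 363, 509 and 419 FPKM in PLC and 2.32, 5.14, 5.85 and 11.5 in 97H. PYCR1 was at 228, 167, 105 and 145 and 0.22, 0.166, 0.145 and 0.0872, the glutamate dehydrogenase GLUD2 was higher in PLC by 4.44 and OAT by 3.22. GLUD2 is nearly identical in sequence to GLUD1, so its reads are uncertain. SLC7A11, the cystine importer, and SLC1A5, a glutamine importer, were higher in 97H by 2.31 and 1.48.

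Of 25 amino acid breakdown genes, 14 were higher in PLC and 4 in 97H (median 0.94; 0.26 with no filter and 0.61 with a minimum mean of 5 FPKM). TAT was under 1 FPKM in all 8 libraries. GLDC (glycine cleavage), AMDHD1 (histidine breakdown) and CBS (transsulfuration) were higher in PLC by 4.46, 2.97 and 2.58. The tryptophan-degrading enzymes TDO2 and KYNU were higher in 97H: TDO2 was at 0 to 0.0341 FPKM in PLC and 2.16 to 5.51 in 97H, and KYNU at 0 to 0.0191 and 7.6 to 14.1. In serine and one-carbon metabolism 7 of 16 were higher in PLC and 1 in 97H. MTHFD2, the mitochondrial folate enzyme of most growing cells, was at 11.8, 56.05, 42.6 and 37.3 FPKM in PLC and 0.0693, 0.0728, 0.0299 and 0 in 97H, and PHGDH was higher in PLC by 2.07. PSAT1 did not pass (-0.07, adjusted p = 0.841).

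Lipid genes were higher in PLC on the side of breakdown and mixed on the side of synthesis. In fatty acid oxidation 22 of 37 were higher in PLC and 4 in 97H (median 0.83). CPT1A, the gate of mitochondrial import, was higher in PLC by 0.83, a call lost under median ratio scaling (adjusted p = 0.146), without the control libraries (0.0752) and without the combination libraries (0.183). CPT1B was higher in PLC by 1.41. ACADM, the medium-chain dehydrogenase, was at 14.8, 39.8, 28.1 and 13.1 FPKM in PLC and 1.16, 0.398, 0.974 and 1.43 in 97H, and the fatty acid binder FABP1 at 13.6, 37.4, 4.83 and 11.7 and 0.0892, 0.193, 0.247 and 0.0921. The acyl-CoA synthetases ACSL1 and ACSL5, PPARG and CYP4F11 were higher in 97H by 2.50, 3.13, 1.25 and 3.88. In fatty acid and triglyceride synthesis 7 of 28 were higher in PLC and 6 in 97H, and the median of 0.18 changed sign under median ratio scaling (-0.08) and ran from -0.08 to 0.18 over the alternatives. ACLY and ACACA did not pass (adjusted p = 0.053 and 0.46). ACLY passed in favour of 97H under median ratio scaling (0.0135), under quantile normalization (0.0191) and without the combination libraries (0.0222). It also passed with all 10 libraries (0.0334), with GC content and length trends removed (0.0342) and without treatment in the model (0.0395). ACACA passed in favour of PLC without the control libraries (0.86 against 0.36, adjusted p = 0.0164). SCD, which desaturates fatty acids, was at 591, 515, 511 and 774 FPKM in PLC and 122, 124, 59.3 and 119.7 in 97H, and ELOVL2 at 25.9 to 54.6 and 0 to 0.0875. G0S2, an inhibitor of fat droplet lipolysis, was at 0 to 0.101 FPKM in PLC and 52.3 to 176 in 97H, and the desaturase FADS2 was higher in 97H by 3.70.

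Of 27 cholesterol genes, 11 were higher in PLC and 4 in 97H (median 0.50; 0.11 with no filter). HMGCS1 was higher in PLC by 1.95. TM7SF2, a sterol reductase, was at 127, 81.9, 62.03 and 57.1 FPKM in PLC and 3.14, 7.34, 4.96 and 7.51 in 97H. Bile acid genes were split, 6 higher in PLC and 4 in 97H of 14. CYP7A1 and CYP7B1, hydroxylases of bile acid synthesis, were at most 0.00263 FPKM in all 8 libraries. CYP27A1 (3.97, 5.59, 4.52 and 6 FPKM in PLC, 62.4, 93.9, 51.9 and 109 in 97H), HSD3B7 (2.82) and the exporter ABCC3 (5.01) were higher in 97H.

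Among the metabolic lists, NRF2 and glutathione genes held the largest share of genes higher in 97H. NRF2, the product of NFE2L2, drives genes against oxidants and electrophiles, and KEAP1 targets NRF2 for degradation. Of 35 genes tested, 26 were higher in 97H and 4 in PLC, and the median was 1.68 in favour of 97H. NFE2L2 RNA went against its targets, at 17.9, 40.5, 33.3 and 21.5 FPKM in PLC and 10.1, 7, 9.37 and 11.9 in 97H (1.42, SE 0.31, adjusted p = 0.00405). KEAP1 was at 58.5, 37.6, 40.1 and 39.6 FPKM in PLC, 3.88, 4.7, 3.82 and 3.02 in 97H and 45.6 and 36.1 in Huh7. It was lower in 97H by 3.20 (SE 0.26, adjusted p = 4.95e-06), and no 97H library exceeded 4.70 FPKM. GPX2, a glutathione peroxidase, was at 3.93, 4.04, 2.49 and 3.15 FPKM in PLC and 466, 652, 353 and 551 in 97H, and NQO1, a quinone reductase, at 12.2, 20.2, 22.8 and 23.6 and 596, 501, 540.4 and 456. Both of these enzymes were stable genes, so by that definition all 4 libraries of 97H were above every PLC library. PGD, an NADPH-making enzyme, was higher in 97H by 0.85 and TXNRD1 (thioredoxin reductase) by 3.07. GCLC, which makes the glutathione precursor, differed less (1.36, adjusted p = 0.0218; 0.77 without the control libraries), and PIR was higher in PLC by 1.99. Of the tested genes of the list, 29 lay nearer to PLC in Huh7 and 6 nearer to 97H, over the control and CDK4/6 inhibitor libraries.

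The promoters of 3 of these genes are shown, since NRF2 is known to bind the antioxidant response element, whose core is written TGACNNNGC. They are RefSeq promoters of GRCh38.p14, 5′ to 3′, from 250 bases before to 50 bases after a start: GPX2 on the minus strand at chr14:64942696-64942995, PGD on the plus strand at chr1:10398814-10399113 and TXNRD1 on the plus strand at chr12:104286782-104287081. Capitals mark matches to TGACNNNGC on either strand.
GPX2: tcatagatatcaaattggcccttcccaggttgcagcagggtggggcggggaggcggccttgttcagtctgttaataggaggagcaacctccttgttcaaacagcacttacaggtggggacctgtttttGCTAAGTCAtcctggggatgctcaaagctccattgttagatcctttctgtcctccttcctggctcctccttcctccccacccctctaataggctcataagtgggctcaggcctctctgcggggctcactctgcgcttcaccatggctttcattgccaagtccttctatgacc
PGD: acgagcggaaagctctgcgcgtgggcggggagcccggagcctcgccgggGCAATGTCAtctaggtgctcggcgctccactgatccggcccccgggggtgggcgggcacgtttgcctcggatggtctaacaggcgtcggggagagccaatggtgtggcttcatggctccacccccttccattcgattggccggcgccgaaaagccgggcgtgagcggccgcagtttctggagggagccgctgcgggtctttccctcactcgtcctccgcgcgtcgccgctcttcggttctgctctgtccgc
TXNRD1: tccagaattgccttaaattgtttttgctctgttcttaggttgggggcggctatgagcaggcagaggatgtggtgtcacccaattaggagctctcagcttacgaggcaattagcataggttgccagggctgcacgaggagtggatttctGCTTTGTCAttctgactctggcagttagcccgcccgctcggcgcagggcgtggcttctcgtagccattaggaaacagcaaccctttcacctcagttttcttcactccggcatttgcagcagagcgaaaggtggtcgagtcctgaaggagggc
Each of the 3 stretches holds 1 match, in the reverse direction, and a further TXNRD1 start holds 2. The list genes higher in 97H whose promoters held a match were CBR1, EPHX1, GPX2, ME1, PGD and TXNRD1. The 3 shown are among them, so a match in each follows from the choice. Of the 26 genes of the list called higher in 97H, 18 matched the promoter table with 22 promoters, and 7 of these (31.82%) held the element, beside 4687 of 35116 promoters overall (13.35%). Among the plasma protein genes of PLC 6 of 25 promoters (24%) held it, so the letters alone are common, and binding was not measured.

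**Figure D4:**
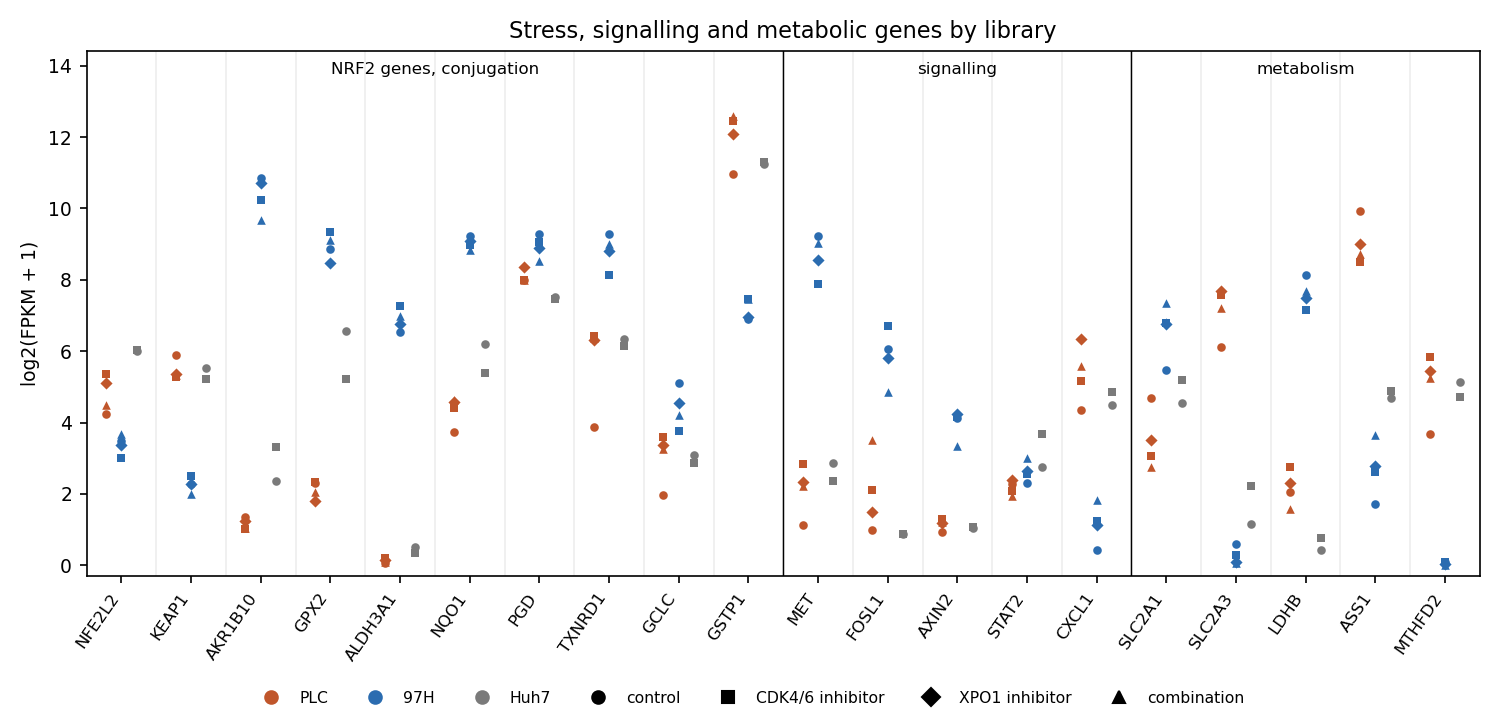
Each point is 1 library, on log2(FPKM + 1), for 20 stress, signalling and metabolic genes; colour is the line and shape the treatment, with PLC left, 97H in the middle and Huh7 right in each column. KEAP1 is lower and GPX2 and NQO1 are higher in all 4 libraries of 97H than in any PLC library, as the definition of a stable gene requires.

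Drug enzymes were divided between the lines, also within a family. In the cytochrome P450 and conjugation list 11 of 29 were higher in PLC and 14 in 97H; the median of 0.25 in favour of 97H changed sign with no filter (0.01, PLC higher) and with a minimum mean of 5 FPKM (0.39, PLC higher); PLC minus 97H, it ran from -0.59 to 0.39 over the alternatives. CYP1A1 was at 19.2, 20.6, 40.99 and 37.7 FPKM in PLC and 0.75, 2.28, 3.13 and 2.55 in 97H, and CYP1A2 was under 1 FPKM in all 8. GSTP1, a glutathione transferase, was among the most abundant RNAs of PLC (1996, 5634, 4323 and 6154 FPKM) and lower in 97H (119.7, 174, 122 and 174), whereas GSTA1, the hepatocyte form, was at 0 to 0.103 in PLC and 12.8 to 43.4 in 97H. CYP26A1, which clears retinoic acid, was at 7.49 to 20.1 FPKM in PLC and listed at 0 in all 97H libraries. CES1 was at 0.434, 0.537, 0.42 and 0.378 FPKM in PLC and 359.5, 539.6, 413 and 699 in 97H, and CYP2S1 (3.51) and EPHX1 (2.93) were higher in 97H. UGT1A genes share their last exons, so their reads cannot be assigned with certainty and their values are not given.

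In the list of alcohol, aldehyde and retinoid enzymes 19 of 32 were higher in 97H and 6 in PLC (median 1.26 in favour of 97H; 0.007 with no filter). ADH1A and ADH1B, the main hepatic alcohol dehydrogenases, were under 1 FPKM in all 8 libraries. ALDH3A1 was at 0.0399, 0.154, 0.116 and 0.0701 FPKM in PLC and 91.9, 153, 107 and 126 in 97H. Retinoid genes were exchanged: RBP4, the plasma carrier of retinol, was at 183, 96.7, 173 and 226 in PLC and 1.01, 1.2, 0.656 and 1.03 in 97H, while the intracellular carrier CRABP2 was at 0.335 to 0.837 and 32.1 to 62.2. DHRS9 (4.60), which makes retinal from retinol, and the retinoid-induced RARRES2 (4.77) were higher in 97H.

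Oxidative phosphorylation genes differed by small steps. In the list 18 of 41 tested were higher in PLC, 7 of them stable (17.07%, beside 17.5% of all tested genes). In 97H 1 was higher, and 22 were not called. The median was 0.56, against 0.27 for all tested genes, and 0.29 under median ratio scaling, against 0.05. NDUFA1 did not pass (-0.35, adjusted p = 0.196), though it passed in favour of 97H under median ratio scaling (-0.62, adjusted p = 0.0416), and NDUFA2 was higher in PLC by 1.69. The largest difference in the list was IDH2, the mitochondrial isocitrate dehydrogenase, at 154, 151, 110.2 and 158 FPKM in PLC and 18.1, 30.4, 21.3 and 25.4 in 97H. Metal-handling genes gave 5 higher in PLC and 2 in 97H of 13, with SELENOP (3.07) and the copper pump ATP7B (2.78) in PLC and the iron exporter SLC40A1 (2.23) and the zinc importer SLC39A4 (2.99) in 97H. MT1A and MT1B were at most 1.03 FPKM in these libraries, and metallothionein genes are too alike for certain read assignment. Hypoxia genes were mostly not called (13 of 19). CA12, a membrane carbonic anhydrase, was at 0.052 to 0.337 FPKM in PLC and 54.9 to 113 in 97H, while CA9 was at most 2.30 FPKM in both and was not tested.

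Proliferation genes hardly separated the lines. Of 29 tested, 21 were not called, 4 were higher in PLC and 4 in 97H; the median of 0.03 changed sign under quantile normalization (-0.11) and median ratio scaling (-0.21), among others, and ran from -0.21 to 0.21 over the alternatives. MKI67 (-0.05, adjusted p = 0.911) and TOP2A (0.34, adjusted p = 0.51) did not pass, and AURKA and MCM3 were higher in PLC by 1.58 and 1.35. Among G1 regulators RB1, the protein that CDK4 and CDK6 phosphorylate, was at 1.24, 3.9, 4.02 and 1.61 FPKM in PLC and 0.281, 0.196, 0.384 and 0.479 in 97H (1.38, SE 0.28, adjusted p = 0.00255). CCND1 did not pass (adjusted p = 0.857) and CCND2 was at most 0.00924 FPKM. CCND3 (1.37) and the CDK inhibitor genes CDKN2B (1.94) and CDKN1C (0.0947 to 0.26 FPKM in PLC and 9.72 to 12.96 in 97H) were higher in 97H.

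HOX and cancer-testis genes that were tested nearly all differed between the lines. A gene read in a single line reaches the mean of 1 FPKM through that line, so the tested members lean toward genes that differ. Of 39 HOX genes in the table, 22 were tested and 12 stayed under 1 FPKM in all 8 libraries. Of the 22, 13 were stably higher in PLC and 6 in 97H, and 3 were not called. Their median was 1.48 (2.42 with a pseudocount of 0.1, 0.38 with no filter and 2.51 with a minimum mean of 5 FPKM). HOX genes fix position along the body axis in the embryo, and their pattern persists in cultured cells. PLC had HOXA4 (3.10), HOXC10 (3.92), HOXC13 (2.98) and HOXD9 (9.81 to 23.2 against 0 to 0.0364). 97H had HOXA2 (1.90), HOXA11 (2.26), HOXB5 (1.63), HOXB6 (2.26) and HOXB7 (0.113 to 0.319 FPKM in PLC and 16.1 to 20.4 in 97H), so within the HOXA cluster both directions occurred. Of 35 cancer-testis antigens in the table, 12 were tested and 20 stayed under 1 FPKM in all 8 libraries. Of the 12, 9 were higher in PLC and 3 in 97H. Their median was 2.35 (4.65 with a pseudocount of 0.1, 0.15 with no filter and 4.85 with a minimum mean of 5 FPKM). MAGEA4 was at 354, 283, 339 and 208 FPKM in PLC and 0.72, 0.405, 0 and 0 in 97H, MAGEA6 at 48.2 to 55.4 and 0.281 to 0.439, CTAG2 at 68.1 to 137 and 0 to 0.198, and MAGEA10 was higher in PLC by 4.85. SPANXB1 (0 to 0.221 FPKM in PLC and 20.3 to 61.6 in 97H), MAGEC1 (1.48) and MAGEC2 (1.85) were the 97H side. MAGEA1 and MAGEA2 were under 1 FPKM in all 8 libraries. Many of these genes have near-identical copies on the X chromosome, so the share of each copy is uncertain.

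Some genes were read in one line and close to absent in the other. Taking at least 5 FPKM in all 4 libraries of one line and at most 0.1 in all 4 of the other, 41 of 20030 genes (0.205%) were on in PLC and off in 97H, and 61 (0.305%) on in 97H and off in PLC. The PLC set held SLC2A2, MTHFD2, ELOVL2, CYP26A1, CXCL12, HOXC13, HOXD9, MAGEA10 and the germ-cell genes PRAME (5.25 to 9.57 FPKM) and GTSF1 (59.3 to 77.4), the last 2 named after their values were seen. The 97H set held ANXA10, APOL1, ACKR3, EMP1, EPHB6, KYNU and DHRS9 from the lists above, with the proteases MMP2 (9.57 to 21.8) and PLAU (18.7 to 29.4) and PSMB8 (0.0291 to 0.0984 in PLC); MMP2 and PLAU were also named after their values were seen. Of the 41, 6 were also at 5 FPKM or more in both Huh7 libraries and 8 at 0.1 or less; of the 61, 13 and 16. Over all 3052 stable genes Huh7 lay nearer to PLC in 1728 (56.62%) and nearer to 97H in 1324.

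Differences also followed the position of genes on the chromosomes (GRCh38, GENCODE 29). Runs of at least 5 neighbouring tested genes that were all stable in 1 direction numbered 40, 31 higher in PLC and 9 in 97H, and held 270 genes. How many runs would arise without regard to position was not tested, and the runs were not repeated under other scalings. Some neighbours in a run may share reads, such as TMEM56, TMEM56-RWDD3 and RWDD3 on chromosome 1 or the SPANX genes on the X chromosome. Of the 40 runs, 12 lay on chromosome 1. The longest held 15 genes higher in PLC between 39692182 and 40771603 on chromosome 1, with a median difference of 2.22. On chromosome 13, 94 of 136 tested genes (69.12%) were higher in PLC and 6 in 97H, with a median of 1.10 that ran from 0.475 to 1.57 over the treatments and was 0.91 after median ratio scaling. RB1 lies there (chromosome 13, 48303726 to 48599436). Chromosome 7 was the opposite: 169 of 477 tested genes (35.43%) were higher in 97H and 45 in PLC, with a median of 0.41 in favour of 97H. DNA copy number was not measured here.

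MET and both caveolae genes lie side by side on chromosome 7, from MDFIC at 114922154 to MET at 116672390 to 116798386. MDFIC (0.0138 to 0.0586 FPKM in PLC and 18.8 to 33.2 in 97H), TES (1.11 to 17.8 and 167 to 331), CAV2 (1.17, 1.81, 1.1 and 1.28 in PLC and 1069.9, 774, 639 and 821 in 97H), CAV1 (1.83, 3.71, 2.2 and 2.66 and 1687, 1225, 1104 and 912) and MET were consecutive tested genes, all stably higher in 97H by 4.78, 5.12, 8.45, 8.41 and 6.55. The next genes, CAPZA2 (-0.26 as 97H minus PLC, adjusted p = 0.616) and ST7 (-0.14, adjusted p = 0.679), did not pass. In Huh7 MET was at 6.33 and 4.18 FPKM, CAV1 at 10.8 and 16.5 and TES at 48.6 and 77.3. A comparable block was the S100 cluster on chromosome 1, where S100A11, S100A10 (2.34), S100A6, S100A4, S100A3 (7.19) and S100A2 (4.43) were higher in 97H and S100A13 and S100A1 were not. S100A13 was at 10.01 to 28.1 FPKM in PLC and 12.5 to 31.2 in 97H, so the block did not hold every S100 gene there.

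**Figure D5:**
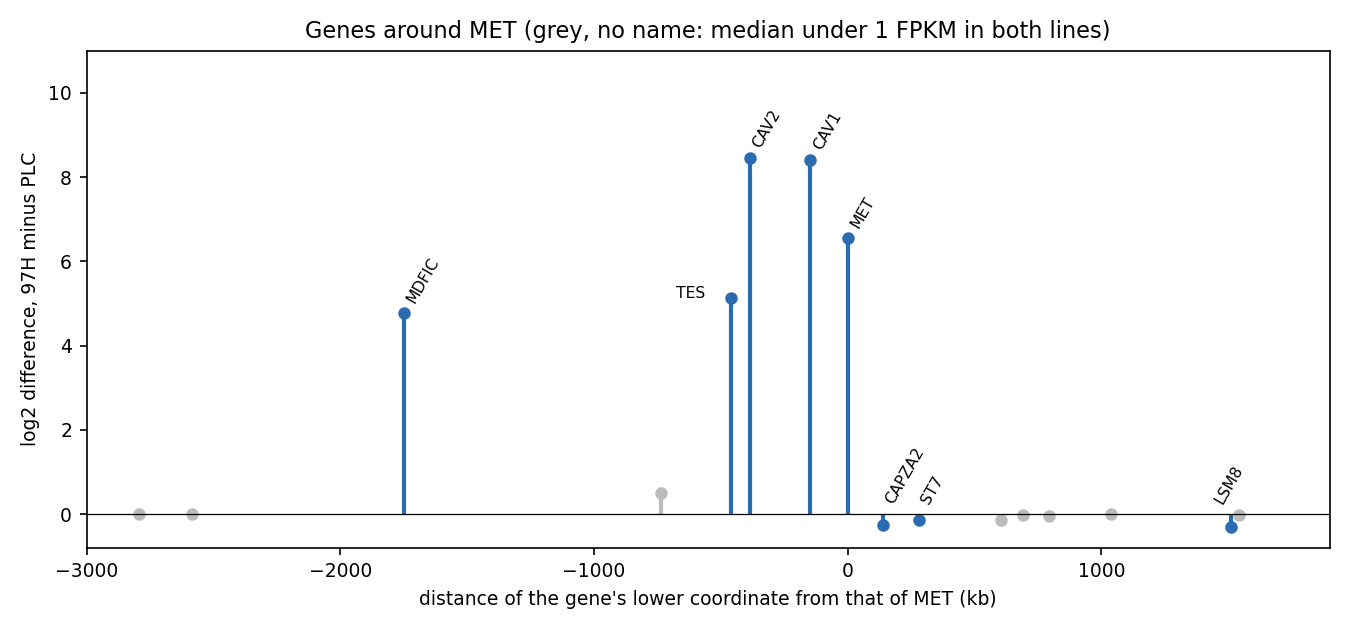
Each stem is a gene of the table around MET, placed by its distance from MET in kb; its height is the log2 difference of FPKM + 1, 97H minus PLC, and grey stems are genes with a median under 1 FPKM in both lines. MDFIC, TES, CAV2, CAV1 and MET stand at 4.78 to 8.45, while CAPZA2 and ST7, on the far side of MET, lie near 0.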

How the data were processed

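RNA sequencing libraries of PLC and 97H, 4 each, were analysed from the deposited gene table, whose values are FPKM computed by the authors. The submitters' processing notes name CASAVA 1.8.2, STAR 2.4.2g1, featureCounts of Subread and GRCh38; the treatment of multi-mapped reads and of strand is not stated there. The table has 20030 entries and 10 libraries; 27 symbols that had been turned into dates were restored, and 97.15% of entries matched GENCODE release 29. FPKM fixes the sum of a library in large part, so a few abundant genes lower all others. Read depth is unknown; steps among low values gave relative depths of 1.0 to 1.31, resting on 2.11% to 5.23% of low genes.

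Genes whose mean reached 1 FPKM in the 8 libraries were fitted with limma 3.58.1 (R 4.3.3; lmFit, eBayes with trend, two-sided) on log2(FPKM + 1), with line and treatment as terms and 3 residual degrees of freedom, with Benjamini-Hochberg adjustment across all 10221 genes. Libraries pair by treatment, per the labels. Deviations from the line means correlated at -0.12, -0.417, 0.181 and 0.334 between libraries of the same treatment. Between libraries of different treatments, across the lines, the correlations ran from -0.61 to 0.543. The highest belonged to the PLC control library, which correlated at -0.12 with the control of the other line. The pairing therefore rests on the labels and is not shown by these correlations. The code was tested on simulated data. The alternatives were other scalings, filters and pseudocounts, a fit without treatment, one with GC content and length trends removed, one with all 10 libraries, and leaving out each treatment. Named genes were the 12 largest stable differences in each direction and, in each of 44 lists, the genes listed at its start, up to 4 stable genes in each direction and genes on in one line alone; neighbours on chromosomes and genes with promoters were named after their values were seen. Some genes that this rule names are not reported here. The members and lists were chosen with earlier results of these data known. Promoters are from RefSeq (GRCh38.p14).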

Additional observations from a re-analysis of the deposited data

Results flagged for a closer look

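A single library stood far from the other 3 of its line in 47 of 600 groups of 4 values of the named genes (7.83%). The rule was a ratio of its gap to the range on the log2 scale above Dixon's critical value. Chance alone marks about 1 group in 20, but that rate does not hold where the other 3 libraries share the same value. Any differing value is then marked, however small, as for PTPRC in both lines. The share of 7.83% therefore cannot be set against 1 in 20. Since each library is a treatment, a response to the drug and a stray library cannot be told apart. The libraries marked were spread over all 8, with 4 to 9 genes each.

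The PLC control library was high for APOM (46.5 FPKM against 15.3 to 18.5), CA9 (2.3 FPKM against 0.0322 to 0.0891), FGFR4 (109.9 FPKM against 28.5 to 30.7) and KEAP1 (58.5 FPKM against 37.6 to 40.1). The PLC control library was low for HLF (2.61 FPKM against 13.1 to 16.2) and TXNRD1 (13.6 FPKM against 78.9 to 84.8). The PLC library with the CDK4/6 inhibitor was high for SLC2A2 (54.9 FPKM against 19.9 to 22.1). The PLC library with the CDK4/6 inhibitor was low for DBP (13.4 FPKM against 31.1 to 32.8). The PLC library with the XPO1 inhibitor was high for PGD (328 FPKM against 252 to 256). The PLC library with the XPO1 inhibitor was low for IDH2 (110.2 FPKM against 151 to 158). The PLC combination library was high for C1QL1 (593 FPKM against 285 to 291) and ERBB2 (15.8 FPKM against 9.67 to 10.5).

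The 97H control library was high for ACACA (10.2 FPKM against 5.48 to 5.87) and NT5E (12.6 FPKM against 9.32 to 9.75). The 97H control library was low for ABCC3 (27.8 FPKM against 38.8 to 39.7). The 97H library with the CDK4/6 inhibitor was high for IGFBP6 (61.1 FPKM against 42.8 to 44.6) and ITGA3 (166 FPKM against 96.8 to 100.5). The 97H library with the XPO1 inhibitor was high for KHK (1.28 FPKM against 0.558 to 0.641). The 97H library with the XPO1 inhibitor was low for SCD (59.3 FPKM against 119.7 to 124). The 97H combination library was high for SLC40A1 (109 FPKM against 19.2 to 24.97) and SPP1 (750.4 FPKM against 103 to 130.5). The 97H combination library was low for AXIN2 (9.08 FPKM against 16.5 to 17.9), AXL (8.65 FPKM against 19.95 to 22.5), MCM3 (17.2 FPKM against 43.9 to 49.6) and WNT7B (8.39 FPKM against 17.4 to 18.8).

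In PLC the genes close to 0 that were marked were ANXA10 (0 FPKM against 0.0343 to 0.0409), CDH5 (0.209 FPKM against 0 to 0.0176), HOXB5 (0.0342 FPKM against 0), KYNU (0 FPKM against 0.018 to 0.0191), LCN2 (0.11 FPKM against 0), PTPRC (0.00746 FPKM against 0), PYCARD (0.0900 FPKM against 0), SOX2 (0.0396 FPKM against 0), TDO2 (0.0341 FPKM against 0) and TNF (0.281 FPKM against 0.119 to 0.129). In 97H the genes close to 0 that were marked were CPS1 (0.0183 FPKM against 0), CTAG2 (0.198 FPKM against 0), CYP1A2 (0.0166 FPKM against 0), G6PC (0.0154 FPKM against 0), GTSF1 (0.093 FPKM against 0), HOXD9 (0.0364 FPKM against 0), IL6 (0.0300 FPKM against 0.0167 to 0.0179), LGR5 (0 FPKM against 0.0281 to 0.0323), NR0B2 (0.467 FPKM against 0 to 0.0364), PTPRC (0.00832 FPKM against 0), RGS10 (0.0461 FPKM against 0) and TNF (0.362 FPKM against 0 to 0.0499).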

How the results depend on the processing

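The 4615 calls, 2890 higher in PLC and 1725 in 97H, and the 3052 stable genes stayed within 1.5 times those counts under every alternative except a minimum mean of 5 FPKM. That filter tests 6518 genes and left 2983 calls, 1883 higher in PLC and 1100 in 97H, and 1902 stable genes. Leaving out a treatment gave 3431 to 5640 calls (2044 to 3672 higher in PLC and 1387 to 1968 in 97H) and 2985 to 3701 stable genes. With no replicate block, that is without treatment in the model, 4977 genes were called, 3163 higher in PLC and 1814 in 97H, 3051 of them stable; among named genes the block's absence changed the calls of CTGF (adjusted p = 0.31), NGFR (0.247) and TTR (0.0825), all lost, and of ACLY (0.0395), gained. The 102 genes on in one line and off in the other became 408 with at least 1 FPKM and 39 with at least 10 FPKM, and 114 to 139 without a treatment. Of 255 named genes called, 8 lost the call under some alternative (CPT1A, CTGF, GCLC, IFITM2, ITGA2, KRT8, NGFR and TTR); with no filter on low values, which tests 16989 genes, this befell all of these. Under some alternative 4 others gained a call (ACACA, ACLY, AFP and NDUFA1). No named gene changed direction. A pseudocount of 0.1 enlarged 92 named differences by over 1.5 times, all of genes with a median under 1 FPKM in one line. Of 43 list medians 40 moved by over 1.5 times or changed sign under some alternative, 34 of them with no filter on low values; 13 changed sign, that of the G1 list (0.02, and -0.12 to -0.27) among them. The cause of these changes was not tested. The design has 1 library for each line and treatment, and FPKM without counts gives no interval for a single value.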

Other observations

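Outside the lists, genes read in one line and close to absent in the other included several regulators and hormones; those named here were chosen after their values were seen, and Huh7 is given as a description. In PLC, THPO (thrombopoietin, the platelet growth factor that hepatocytes secrete) was at 17.2, 8.12, 8.62 and 12.7 FPKM, against 0 to 0.0573 in 97H and 1.44 and 0.89 in Huh7. CD70, a ligand of the TNF family, was at 8.19, 18.8, 17.5 and 20.6 and 0 to 0.0725. In 97H, SOX2, a pluripotency factor, was at 15.9, 8.67, 13.9 and 5.43 FPKM, against 0 to 0.0396 in PLC and 0 and 0.0384 in Huh7. The orphan nuclear receptor NR0B1 was at 56.5, 53.3, 42.6 and 18.3 in 97H and 0 to 0.0404 in PLC. STRA6, the cell surface receptor for retinol carried by RBP4, was at 5.58, 8.28, 6.46 and 5.4 in 97H and 0.00741 to 0.0429 in PLC, while RBP4 itself was high in PLC. PYCARD, the adaptor of inflammasomes, was at 60.3, 98.9, 101 and 154 in 97H and 0 to 0.09 in PLC, and CD55, a complement inhibitor on the cell surface, at 9.92, 7.9, 11.5 and 12.4 and 0 to 0.047.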
